A study of Danio rerio and Xenopus laevis and Xenopus tropicalis with 8 samples.

Results

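The 6 genes described here, phlda3, sesn3, mdm2, rps27l, isg15 and foxo3b, were treated as a group of p53 target genes in zebrafish embryos at 6 h after fertilization. They are 6 of the 32520 genes listed in the single-cell tables. They were chosen by their measured values in these same libraries, namely their labeled share, their joint detection in single cells, the germ layer of the cells with counts and their maternal level, so all of these are given as descriptions and without a test. The study combined tomo-seq, which counts RNA in serial sections along an axis, with scSLAM-seq, in which RNA made after fertilization is marked with a uridine analog. Of its 8 samples, 4 are frog oocytes and were not used here. For tomo-seq, 3 untreated AB wildtype embryos (embryos 1, 2 and 3) had been sectioned at the one-cell stage, before the embryo's own genes are switched on. For scSLAM-seq, 10 AB wildtype embryos had been injected with 4sUTP as zygotes, pooled at 6 h, dissociated and fixed in methanol to give 1 library. All cells thus come from injected embryos, uninjected cells were not analysed here, and the embryo of origin of a cell is not recorded, so cells of 1 embryo cannot be told apart from cells of another.

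The transcription factor p53 is kept at a low level by mdm2, a ubiquitin ligase whose gene p53 itself switches on, so that the loop limits its own activity. When DNA is damaged or other stress is sensed, p53 escapes this control and raises genes that arrest the cell cycle, repair damage or lead to apoptosis. In mammals phlda3 is a p53 target that holds back AKT signaling, rps27l is a p53-induced relative of the ribosomal protein gene rps27, and the sestrin family, to which sesn3 belongs, acts against oxidative stress and growth signaling. foxo3b encodes a forkhead factor of the FOXO family, which is restrained by AKT, and isg15 encodes a ubiquitin-like protein best known from the interferon response. Messages of the embryo's first hours are maternal. Zygotic copies begin to replace them in the hours before gastrulation, and both kinds are present at that stage.

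A barcode was kept as a cell when at least 150 genes were seen in each of the labeled and the unlabeled matrix, which left 6847 of 737280 barcodes with 8498000 labeled and 12959939 unlabeled UMI counts. The median cell had 1139 labeled and 1778 unlabeled counts. A labeled count is a molecule read with more than 1 T-to-C change and stands for RNA made after injection, and an unlabeled count is any other molecule. Barcodes with at most 100 counts, 404733 in all, were taken as a measure of free RNA. With 1 library there is no replicate of the cells, and all intervals on cells and counts are exact 95% intervals that cover counting error only.

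The group was made almost wholly of new RNA. Over all cells, 39.6% of counts were labeled, and the median gene with at least 100 counts was labeled to 48.4% (quartiles 21.9% and 74.6%, 7405 genes). isg15 had 160 labeled and 8 unlabeled counts, a labeled share of 95.2% (Clopper-Pearson interval 90.8% to 97.9%). foxo3b had 38 labeled and 2 unlabeled counts, a share of 95% (83.1% to 99.4%). phlda3, with 111 and 10 counts, was labeled to 91.7% (85.3% to 95.97%). isg15 and phlda3 lay above 97.3% or more of the genes with at least 100 counts. foxo3b had fewer counts than this limit, so its rank among these genes is not given.

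sesn3 and rps27l followed closely. sesn3 had 335 labeled and 41 unlabeled counts and a share of 89.1% (85.5% to 92.1%). rps27l was by far the most abundant, with 7072 labeled and 873 unlabeled counts and a share of 89.01% (88.3% to 89.7%). mdm2 was the lowest of the group at 82.7% (77.1% to 87.4%), from 186 labeled and 39 unlabeled counts, and still lay above 84.96% of genes. The 6 shares thus spanned 82.7% to 95.2%, and the intervals of isg15 and mdm2 did not overlap. ccng1, which encodes cyclin G1 and is a p53 target in mammals, was mostly unlabeled, with 2707 labeled and 37911 unlabeled counts and a share of 6.66%.

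**Figure D1:**
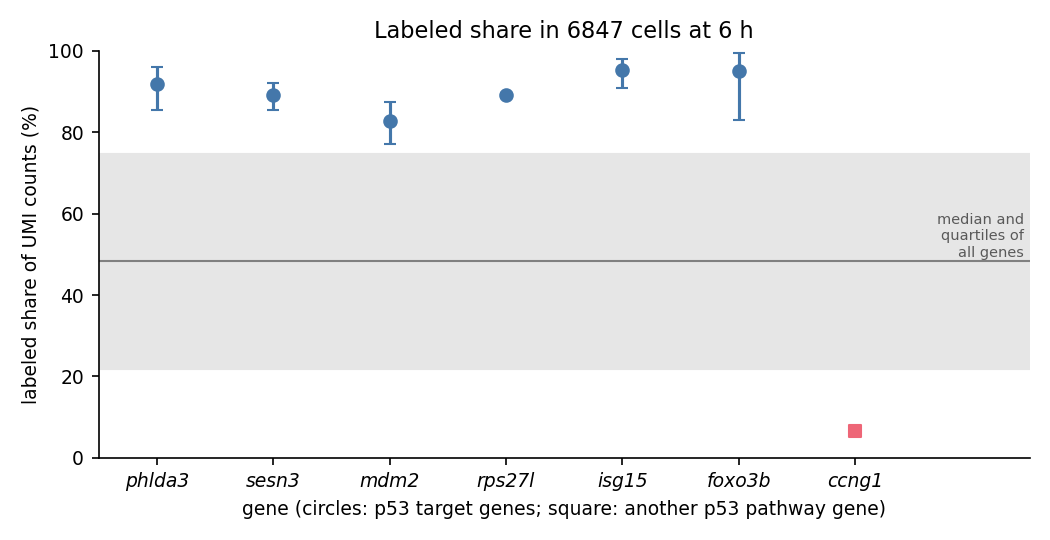
Labeled share of UMI counts (percent, y axis) of the 6 genes (circles, bars are 95% Clopper-Pearson intervals) and of ccng1 (square); the line and the grey band give the median and the quartiles of all genes with at least 100 counts. The 6 genes sit between 82.7% and 95.2%, above the upper quartile of 74.6%, while ccng1 sits at 6.66%.

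Apart from rps27l the genes were seen in few cells. A labeled count of rps27l was found in 2971 cells (43.4% of cells, interval 42.2% to 44.6%) and up to 53 counts were found in 1 cell. sesn3 was found in 271 cells (3.96%), mdm2 in 167 (2.44%), phlda3 and isg15 in 90 each (1.31%) and foxo3b in 33 (0.482%). Most of these cells held a single count. mdm2 had 1 count in 156 of its 167 cells, and phlda3 in 74 of its 90. isg15 stood out by its spread, since 10 cells held 37.5% of all its labeled counts and 1 cell held 17.

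Free RNA limits what a single count can show. Per 10000 labeled counts, the cells held 0.131 of phlda3, 0.394 of sesn3, 0.219 of mdm2 and 0.188 of isg15, and the near-empty barcodes held 0.162, 0.377, 0.236 and 0.256 of the same genes. The interval of the near-empty value held the value of the cells for each of these 4 genes. rps27l was 1.21 times as high in cells, at 8.32 against 6.87. foxo3b was not seen among the 1485566 labeled counts of the near-empty barcodes. The keratin gene krt5, a marker of the enveloping layer, was detected in 87.2% of the enveloping layer-like cells (median 1675 labeled counts) and in 1.73% of all other cells (median 1134), so a share of cells near 1% or 2% is no proof of expression in those cells. Which of the cells with a single count of phlda3, isg15, mdm2 or foxo3b express the gene was therefore not decided here, and the joint presence of several of these genes in a cell carries the description that follows.

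The 6 genes were found together in the same cells. To compare cells of different depth, each was reduced to 600 labeled counts by exact calculation, which kept 5635 cells, and the share of cells with a second gene was compared between cells with and without a first. All 30 ordered pairs had a ratio of at least 1.5, from 1.88 to 89.6, with a median of 14.9. The same ratio was computed for 6024 other genes detected in at least 1% of cells, a limit that 5 of the 6 genes passed and foxo3b did not. Among cells split by phlda3, 18.5% of those genes reached 1.5, and among cells split by sesn3, mdm2, isg15 and foxo3b, 10.5%, 16.1%, 18.9% and 22.2% did. Among cells split by rps27l, 1.66% of genes did. Of the 30 pairs, 25 lay above 99% of the genes compared with the same first gene, and the lowest lay above 92.6%. Pairs with the common gene rps27l as the second gene lay above 92.6% to 96.3%. The genes compared were not matched to the 6 in how often they were detected, and rarer genes can reach higher ratios. The 6 were also chosen by joint detection, so these ranks are a description.

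By this ratio the closest pair was phlda3 and foxo3b. foxo3b was detected in 15.7% of cells with phlda3 and in 0.175% of cells without it, a ratio of 89.6. Before depth was equalized, 17 of the 33 cells with foxo3b also held phlda3. isg15 and foxo3b were next, with ratios of 37.2 and 31.8 and 12 shared cells. phlda3 and isg15 followed, with 18.6% against 0.628% of cells and a ratio of 29.7. They shared 19 cells as counted, out of 90 cells each.

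By this ratio sesn3 and mdm2 were joined less closely to phlda3, isg15 and foxo3b. The highest ratio possible is lower for a commoner second gene, and sesn3 and mdm2 were found in more cells. As counted, 17 of the 33 cells with foxo3b held sesn3, as many as held phlda3, and 12 held mdm2. Of the 90 cells with isg15, 36 held sesn3, 21 mdm2 and 19 phlda3. sesn3 was detected in 27.4% of cells with phlda3 and in 1.84% of the others, and 32 cells held both genes. mdm2 was detected in 16.04% of cells with phlda3 and in 1.17% of the others, with 19 cells in common. The pair of sesn3 and mdm2 was the weakest apart from those with rps27l, at ratios of 6.04 and 5.82 and 22 shared cells. rps27l, being present in many cells, had low ratios as the second gene, for example 2.89 in cells with phlda3, but it was present in 83.2% of those cells against 28.8% of the rest. Of the 33 cells with foxo3b, 31 also held rps27l.

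**Figure D2:**
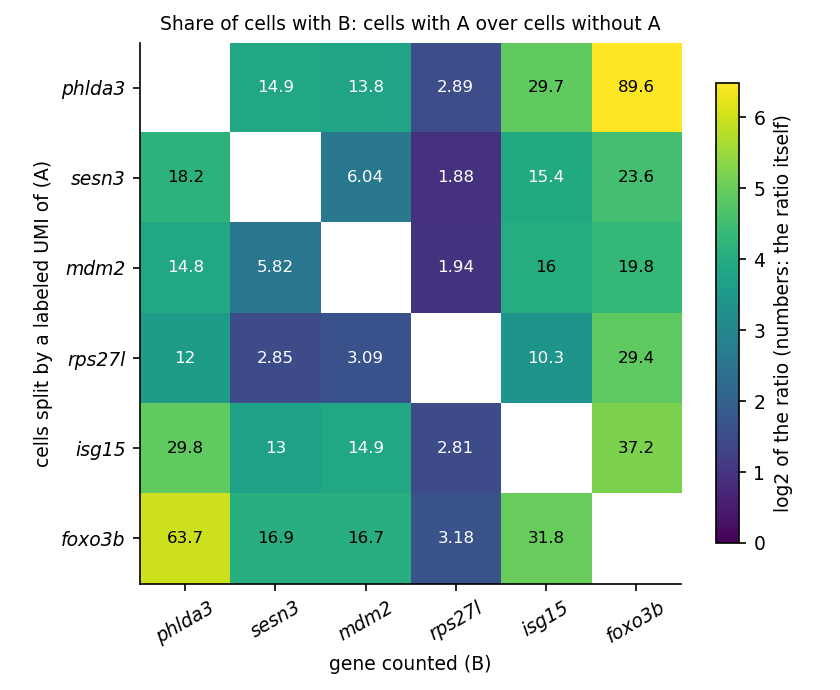
Ratio of the share of cells with gene B (columns) in cells with a labeled UMI of gene A (rows) to the share in cells without it, expected at 600 labeled counts per cell; colors give log2 of the ratio and numbers the ratio. Every cell of the plot is above 1.5, the highest being phlda3 with foxo3b at 89.6, and the column of rps27l runs from 1.88 to 3.18.

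Genes were also counted per cell. As counted, 3691 cells held none of the 6 genes, 2830 held 1, 236 held 2, and 54, 24, 10 and 2 cells held 3, 4, 5 and all 6. At least 2 genes were found in 326 cells (4.76%, interval 4.27% to 5.29%), of which 236 lay just at that limit. When rps27l was not counted, 6337 cells held none of the other 5, 419 held 1, 55 held 2, and 24, 10 and 2 held 3, 4 and 5. These 91 cells with at least 2 of the 5 made up 1.33% of cells (1.07% to 1.63%), and 36 of them held 3 or more. Independent detection of the 5 genes, at their shares over all cells, would give 0.316%, with no allowance for cells of different depth. The genes were chosen by joint detection in these same cells, so the gap is a description and not a test. The independent share was not computed for the 6 genes, of which rps27l alone was found in 43.4% of cells. A cell with at least 2 of the 6 may thus hold rps27l and 1 other gene without any link between them.

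The levels were higher the more of the other genes a cell held. rps27l was measured at 6.21 labeled counts per 10000 (Poisson interval 6.03 to 6.39) in cells with none of the other 5 genes, at 15.2 (14.3 to 16.2) in cells with 1 and at 81.01 (76.6 to 85.6) in cells with at least 2. With 3 or more, it reached 98.4 (90.6 to 107), and all 36 of these cells held it. The lower quartile of cells with 3 or more lay at 86.3 and the upper quartile of cells with none at 9.29. The genes were chosen by joint detection in these same cells, so this gap is a description and not a test.

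The other 5 genes had steeper steps. Between cells with none and cells with at least 2 of the others (rps27l not counted), phlda3 went from 0.0544 to 3.11 labeled counts per 10000, 57.2-fold. isg15 went from 0.0789 to 4.34, 54.97-fold, and foxo3b from 0.00912 to 1.67, 183-fold. The first value of foxo3b rests on 7 counts. sesn3 went from 0.269 to 7.46, 27.7-fold, and mdm2 from 0.166 to 2.33, 14.01-fold. In cells with none of the others, phlda3, sesn3, mdm2, rps27l and isg15 all lay below their level in near-empty barcodes. In cells with at least 2 of the others, these 5 genes lay 9.88 to 19.8 times above it. Joint detection was used to choose the genes, so these steps are a description. The share of other genes with such steps was not computed.

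**Figure D3:**
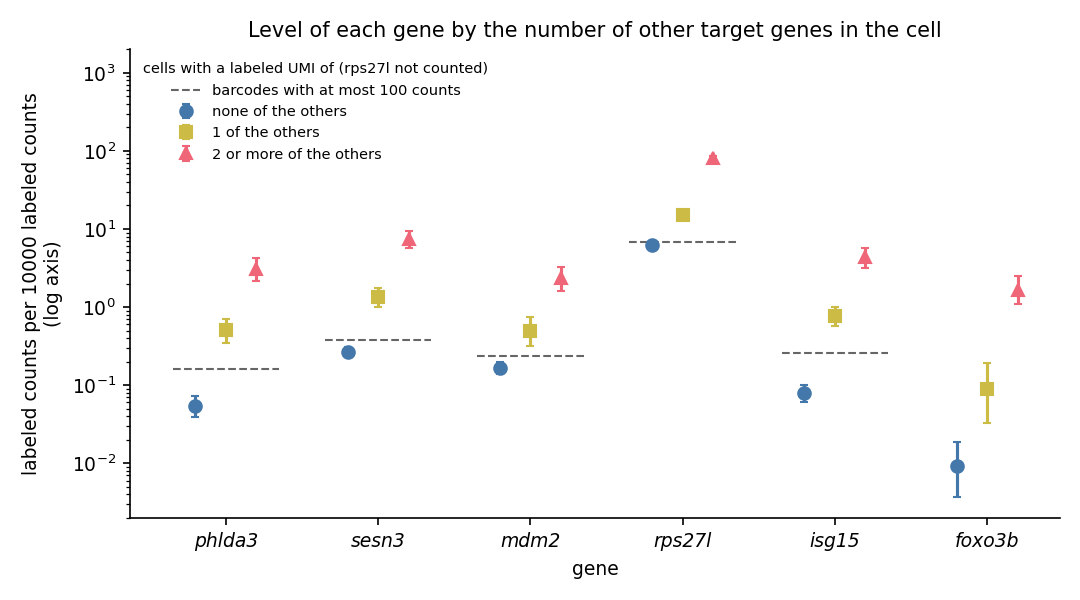
Labeled counts per 10000 labeled counts (log axis) of each gene in cells with none, 1 and at least 2 of the other genes, with rps27l not counted among the others; bars are 95% Poisson intervals and dashed lines the level in near-empty barcodes, which is 0 and not drawn for foxo3b. Each gene climbs at both steps, for example rps27l from 6.21 through 15.2 to 81.01.

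The unlabeled counts of rps27l were higher in the same cells. Per 10000 unlabeled counts they were 0.588 (interval 0.545 to 0.634) in cells with none of the other 5 genes and 5.81 (4.30 to 7.68) in cells with 3 or more. The labeled share of rps27l was 87.3% (86.4% to 88.2%) in the first cells and 92.4% (90.02% to 94.3%) in the second. rps27l shares sequence with the ribosomal protein genes rps27.1 and rps27.2, and how reads common to them were divided is uncertain. Neither was higher in cells with 3 or more of the other genes, which had most rps27l, than in cells with none. rps27.1 was at 20.7 labeled counts per 10000 in cells with none and 16.6 in cells with 3 or more, and rps27.2 at 10.2 and 7.64. In cells with 2, where rps27l was at 70.4, rps27.1 was higher than in cells with none, at 22.1, and rps27.2 was at 9.71.

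Depth and quality measures of these cells are given beside their levels, and their part in the result was not tested. Cells with none, 1, 2 and at least 3 of the 5 genes had medians of 1126, 1335, 1491 and 1270 labeled counts. Mitochondrial genes gave 4.00% of counts in cells with none and 4.39% in cells with 3 or more, and the median share of labeled counts was 40.2% and 40.04%. The median doublet score of Scrublet was 0.0769 in cells with none, 0.0835 in cells with 1 and in cells with 2, and 0.0544 in cells with 3 or more. Of these groups, 6.04%, 9.07%, 10.9% and 0% of cells had a score among the 5% highest (427 cells, ties included). Scrublet's own limit called only 7 cells (0.102%), so it is not counted as having worked.

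Other genes of the p53 pathway were followed through a list of 55 genes, of which 52 were found in the table and 21 in at least 1% of cells. At 600 labeled counts, 7 of these 21 were detected at least 1.5 times as often in cells with at least 2 of the 6 genes as in cells with none, against 8.76% of the 6024 genes compared. The median ratio of the 21 genes was 1.02, and that of all genes 0.990. The list was thus described by a minority of genes at or above 1.5 and a median close to that of all genes. The gene with the highest ratio was baxa, a mitochondrial apoptosis gene, at 3.78% against 1.38% of cells (ratio 2.73). gadd45bb, a growth arrest gene, followed at 2.48, the antiproliferative gene btg1 at 2.32 and ccng1 at 2.20. mdm4, the partner of mdm2, had a ratio of 1.76, ccng2 1.63 and btg2 1.59. The ratio was 1.47 for pmaip1, which promotes apoptosis, and 1.15 for perp. When cells with at least 2 were compared with cells with none of the 5 genes other than rps27l, 8 of the 21 reached 1.5 and the median was again 1.02. baxa then stood at 6.23, gadd45bb at 8.71 and pmaip1 at 2.81, and ccng2 turned to 0.794. The share and the median of all genes were not computed for this second grouping, so its count of 8 has no background. xpc, a DNA repair gene named after its value was seen as the 1 gene with a ratio under 0.667, was lower, at 0.175% against 0.690% of cells.

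Classic targets were rare. cdkn1a, the p21 cell cycle inhibitor, had 22 labeled counts in all cells, and bbc3, which encodes the apoptosis protein Puma, had 31. Both lay under the limit of 1% of cells and are named after their values were seen. Of the 326 cells with at least 2 of the 6 genes, 12 held cdkn1a and 14 held bbc3, and the ratios at 600 counts were 16.2 and 17.1. sesn1, named in the same way, was found in 13 of these cells at a ratio of 8.03. List genes under the limit went both ways. sesn2 (31 labeled counts) had a ratio of 0.735, ddb2 (48) 0.546 and casp9 (30) 0, although 1 of the 326 cells held casp9 before depth was equalized. tp53inp1 (52) had 3.28. gadd45aa (15) and casp8 (22) were each found in 8 of the 326 cells. At 600 counts they were in 0.808% and 1.22% of cells with at least 2 genes and in 0% of cells with none. These too are named after their values were seen, and the number going each way was not counted. Ratios of all genes under 1% of cells were not summarized, so the ratios of these rare genes have no background.

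Interferon genes other than isg15 had few counts. Of 33 on the list, 30 were in the table, 14 had no labeled count and 25 had fewer than 10. Only isg20, with 742 labeled counts, and b2ml, with 145, reached 1% of cells, at ratios of 1.46 and 1.33. When cells were grouped without rps27l, their ratios were 2.59 and 2.46. Of 25 FOXO family members and targets, 7 reached 1% of cells and 1 of them a ratio of 1.5, namely pik3ip1 at 2.86. Of 21 stress genes (heat shock, unfolded protein and immediate-early genes), 8 reached 1% of cells and none of these 8 a ratio of 1.5. Grouped without rps27l, 3 of the 7 FOXO genes and 1 of the 8 stress genes, hspa5 at 2.17, reached it. The share of all genes at or above 1.5 was not computed without rps27l, so these counts and ratios have no background. With rps27l counted, stress genes under 1% of cells went both ways. Of the immediate-early genes, fosab (23 labeled counts) had a ratio of 15.9, jun (34) 3.57 and junba (3) 0.227. Of the other genes on the list, ddit3 (4) had 12.1, hsp90aa1.2 (15) 10.3, atf3 (37) 0.989 and hsp70l (4) 0. These are named after their values were seen, the number going each way was not counted, and their ratios have no background either.

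The genes whose detection was most like that of the group, with rps27l counted, were taken as the 10 with the highest ratio. The first was ENSDARG00000102572, detected in 6.23% of cells with at least 2 of the 6 genes and in 0.649% of cells with none, a ratio of 9.60. It was found in 46 of the 326 cells and, like the group, was labeled to 95.4%. The kinase gene rps6ka3a followed at 5.62, rnf169, which encodes a ubiquitin ligase that acts at DNA breaks, at 4.41, and her12, a hairy-related repressor, at 4.05. BX537288.1 reached 4.007 and phlda1, a relative of phlda3, 3.82. The last 4 were sugt1 at 3.72, si:ch73-303b9.1 at 3.66, ppp1r9alb at 3.65 and rnaseh2b, a subunit of ribonuclease H2, at 3.61. Each of these 4 was found in 8 to 15 of the 326 cells. rps6ka3a, sugt1 and si:ch73-303b9.1 were labeled to only 8.35%, 8.16% and 4.86%, unlike the 6 genes. When cells were grouped without rps27l, the ratio of sugt1 was lower at 1.501, that of ppp1r9alb at 2.502 and that of si:ch73-303b9.1 at 2.66. The rest of the 10 had higher ratios, between 6.89 for BX537288.1 and 21.96 for ENSDARG00000102572. The ratios of all genes were not summarized for that grouping, so these values have no background.

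To see in which cells the group occurred, cells were clustered by labeled RNA without the 6 genes and without the p53, interferon, FOXO and stress lists. This gave 14 clusters, of which 8 were named from marker genes and formed 7 classes with 3242 cells, and 6 stayed unnamed with 3605 cells. All 8 PGC markers were raised in the PGC-like cluster and 12 of the enveloping layer markers in the enveloping layer-like one. The endoderm-like, non-axial mesoderm-like and neuroectoderm-like clusters had 8 raised markers each, the ventral margin mesoderm-like cluster 7, and both axial mesoderm-like clusters 9 and 7. A marker counted as raised at a log2 difference of 0.5, a limit lowered from 1 after the names were seen, and at 1 the neuroectoderm-like cluster stayed unnamed. An unnamed cluster of 390 cells had 5 raised enveloping layer markers but a median of only 715 counts, and 2 of its cells (0.513%) held at least 2 of the 6 genes. As counted, at least 2 of the 6 genes were found in cells of every class.

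The share of such cells was alike in most classes. It was 5.07% in non-axial mesoderm-like cells (44 of 868, interval 3.71% to 6.75%), 4.91% in ventral margin mesoderm-like cells (22 of 448), 4.59% in endoderm-like cells (9 of 196), 4.34% in axial mesoderm-like cells (22 of 507), 4.13% in neuroectoderm-like cells (43 of 1041) and 4.08% in PGC-like cells (2 of 49). All of these intervals overlapped. Enveloping layer-like cells lay highest at 9.02% (12 of 133, interval 4.75% to 15.2%). These cells had the highest median depth of the classes, 1675 labeled counts against 866 to 1525 in the others. At 600 labeled counts they stood at 3.65%, and the other classes ran from 1.05% in neuroectoderm-like to 2.697% in PGC-like cells. At this depth the order changed when rps27l was not counted. Endoderm-like cells were then highest at 1.32%, with enveloping layer-like cells at 0.714%, neuroectoderm-like cells at 0.130% and PGC-like cells at 0. As counted and without rps27l, enveloping layer-like cells stayed highest at 3.01% and endoderm-like cells were at 2.04%, each from 4 cells.

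An unnamed cluster of 504 cells had a higher share than any class, with an interval that overlapped those of the enveloping layer-like and PGC-like cells only. In it, 62 cells (12.3%, interval 9.56% to 15.5%) held at least 2 of the 6 genes, and 28 of the 91 cells with at least 2 of the 5 genes other than rps27l lay there (30.8%), although it held 7.36% of all cells. Of the 36 cells with 3 or more, it held 19. At 600 counts its share was 9.65%. No marker list reached 3 raised genes with 1 among its 10 leading genes. Its leading labeled genes were ccdc90b, ms4a17a.10 and CABZ01020840.1, followed by phlda3, sesn3, mdm2 and isg15, which had been kept out of the clustering. These cells had a median of 830.5 labeled counts and 34.2% labeled RNA, against 1139 and 40.3% in all cells.

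This cluster depends on the settings. At a Leiden resolution of 0.6, 469 of its cells came together again in a cluster of 471, with 27 of the 91 cells. At a resolution of 1.5, and with at least 300 or at least 50 genes per barcode, no cluster of 100 or more cells had more than 3.33% of cells with at least 2 of the 5 genes. When its cells were left out, the median ratio of the 30 pairs was 10.3 and all 30 stayed at or above 1.5.

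**Figure D4:**
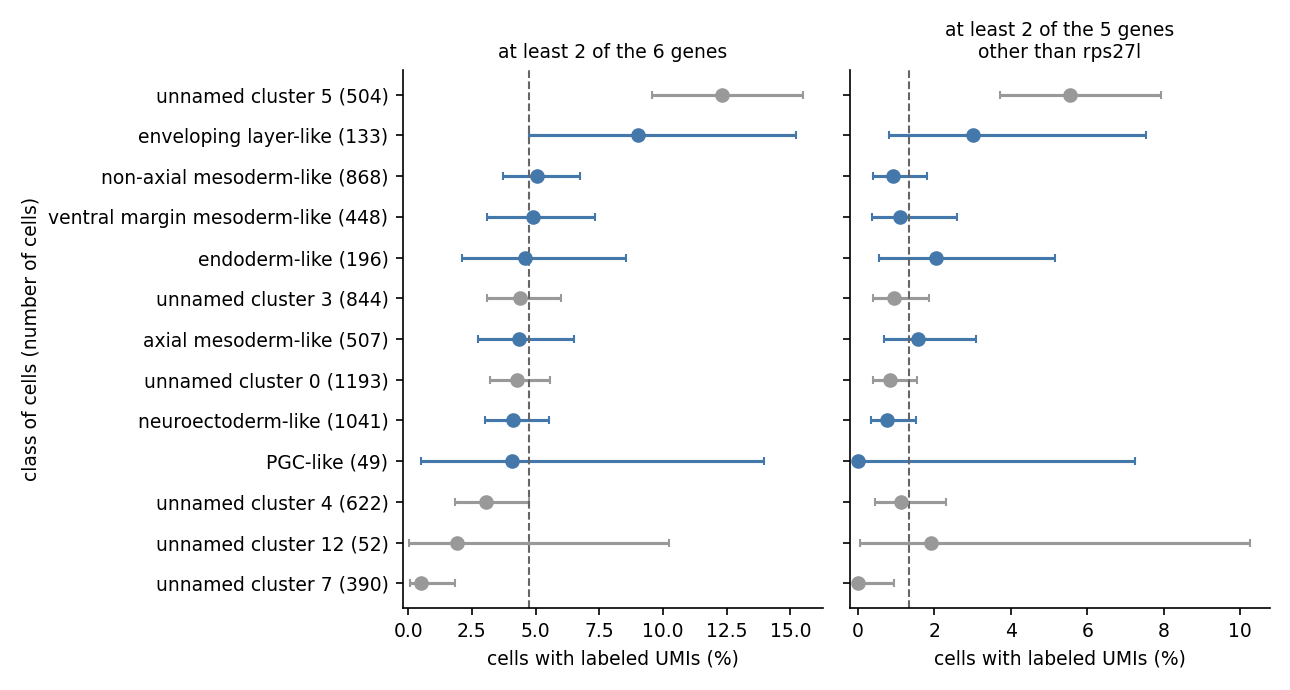
Share of cells (percent) in each class or unnamed cluster with labeled counts of at least 2 of the 6 genes (left) and of at least 2 of the 5 genes other than rps27l (right); bars are 95% Clopper-Pearson intervals, dashed lines the share of all cells (4.76% and 1.33%), blue named classes and grey unnamed clusters. The unnamed cluster of 504 cells lies highest in both panels, at 12.3% and 5.56%, and most named classes lie near the dashed lines.

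Single genes had their own order among the classes, all as labeled counts per 10000. isg15 was highest in enveloping layer-like cells at 1.16 (interval 0.819 to 1.59) and lowest in neuroectoderm-like cells at 0.0608 (0.0291 to 0.112). The 38 counts of the enveloping layer-like class came from 6 cells, and 1.57% to 2.65% of the PGC-like, endoderm-like and enveloping layer-like cells held isg15 at 600 counts. sesn3 was highest in endoderm-like cells at 0.672 (0.398 to 1.06), which overlapped the other classes with counts, 0.333 to 0.396. In the 49 PGC-like cells sesn3 was not seen, and 3 cells, the limit that a count of 0 allows, would be 6.12% of cells with a UMI, not of cells expressing it.

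rps27l ranged from 3.12 (1.78 to 5.06) in PGC-like cells to 7.69 (7.05 to 8.37) in ventral margin mesoderm-like cells. Neuroectoderm-like cells had 4.94 (4.61 to 5.29), below the mesoderm and endoderm classes, which lay from 6.50 upward. They were also lowest in phlda3, with 0.0243 (0.00662 to 0.0622) from 4 counts, against 0.156 to 0.166 in the 3 mesoderm classes. foxo3b was seen in none of the 1041 neuroectoderm-like cells, for which the same limit is 0.288% of cells with a UMI, and in 4 of the 196 endoderm-like cells. mdm2 was between 0.0991 in axial mesoderm-like cells and 0.202 in ventral margin mesoderm-like cells among the classes where more than 4 cells held it, and the intervals overlapped. The 0.584 of PGC-like cells rests on 3 counts. In the unnamed cluster of 504 cells every gene was above its level over all cells, with 20.5 for rps27l, 1.44 for sesn3, 0.885 for mdm2, 0.774 for isg15, 0.708 for phlda3 and 0.398 for foxo3b.

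Joint detection was also looked at within each class. In endoderm-like cells all 30 ratios reached 1.5, with a median of 19.5. In axial mesoderm-like cells 27 of 30 did, with a median of 12.8. The median was 3.59 in ventral margin mesoderm-like cells (22 of 30), 3.01 in non-axial mesoderm-like cells (23 of 30), 1.97 in neuroectoderm-like cells (14 of 20 that could be computed) and 1.26 in enveloping layer-like cells (14 of 30). Few cells stand behind these values, and 8 to 15 of the 15 pairs shared at least 1 cell in these classes as counted. Only 4 endoderm-like cells held at least 2 of the 5 genes other than rps27l, and 3 of them held 3 or more. The same cells thus recur in several of the ratios. The share of other genes at or above 1.5 was not computed within classes. In PGC-like cells, 2 pairs shared a cell.

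At the one-cell stage, mdm2 had the highest level among the 4 of the 6 genes with an entry in the tomo-seq tables. In expected counts per 1000000 (CPM), mdm2 was at 22.2 in embryo 1, 54.7 in embryo 2 and 128 in embryo 3, from 225, 690 and 4060 expected counts. It ranked above 75.6%, 83.9% and 89.7% of the gene entries of these embryos. The counting intervals of the 3 embryos, 19.4 to 25.3, 50.7 to 58.99 and 124 to 132, did not overlap, and their mitochondrial share differed as well, at 20.7%, 21.8% and 1.80%, whose part in the difference was not tested. Without mitochondrial genes the median of mdm2 was 69.8 CPM in place of 54.7.

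foxo3b, sesn3 and phlda3 had far fewer counts. foxo3b was at 2.37, 1.98 and 3.15 CPM in embryos 1, 2 and 3, from 24, 25 and 99.9 expected counts, and ranked above 47.6%, 44.4% and 52.6% of the gene entries. In the same embryos sesn3 was at 0.197, 0.0794 and 0.791, from 2, 1 and 25 counts. phlda3 had no entry in embryos 1 and 2 and stood at 2.22 CPM in embryo 3, the deepest. rps27l and isg15 had no entry under their identifiers in the tables of any embryo. The tables hold only genes with counts, and a missing entry gives no level. For comparison, ccng1 was at 810, 920 and 707 CPM. Among the 4 genes with an entry, mdm2 had the highest maternal level and also the lowest labeled share. The others did not follow such an order. sesn3 had the lowest level with a share of 89.1%, and foxo3b came next below mdm2 in level with a share of 95%.

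The place of maternal mdm2 along the animal-vegetal axis was not used to choose the genes, so it could be tested. Of the 6 genes, only mdm2 passed the filter of at least 5 counts in 1 section of every embryo. The kept sections were split into 3 equal parts. The animal part of embryo 1 held 22.01 CPM and the vegetal part 22.3. In embryo 2 the values were 59.8 and 43.4, and in embryo 3 they were 128 and 123. The vegetal part was thus lower in embryo 2, and both parts lay close to each other in embryos 1 and 3. The log2 fold change from animal to vegetal was −0.18 ± 0.15 (SE, n = 3 embryos), with an adjusted p of 0.327 (edgeR, quasi-likelihood, embryos as blocks), so mdm2 was not called. In the same fit 39.7% of 6592 genes were called, 322 with a higher vegetal and 2297 with a higher animal level, and all genes had a median of −0.30 on the log2 scale, so relative to it mdm2 lay 0.12 higher. With TMM factors and with DESeq2 size factors the median gene lay near 0 and mdm2 at 0.10 and 0.13, without a call, and the calls split into 820 vegetal and 715 animal genes (TMM) and 633 and 438 (DESeq2). dazl, a germ plasm gene known to lie at the vegetal pole, rose from 7.69 to 413 CPM in embryo 1, from 8.42 to 189 in embryo 2 and from 48.7 to 1339 in embryo 3. Its direction is no check of the fit, since dazl was used to decide which end is vegetal.

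Of the 55 other p53 pathway genes, 20 were tested in the same fit. 3 were called with a higher animal level, gtse1 at −2.19 ± 0.17, btg1 at −0.66 ± 0.17 and fdxr at −0.63 ± 0.21 (log2 ± SE), and none with a higher vegetal level. The median log2 fold change of the 20 genes was −0.16 beside −0.30 for all genes. Of all 6592 genes in this fit, 39.7% were called, 2297 genes with a higher animal level. For gtse1, btg1 and fdxr only the fit with region totals is given, not those with TMM or DESeq2.

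**Figure D5:**
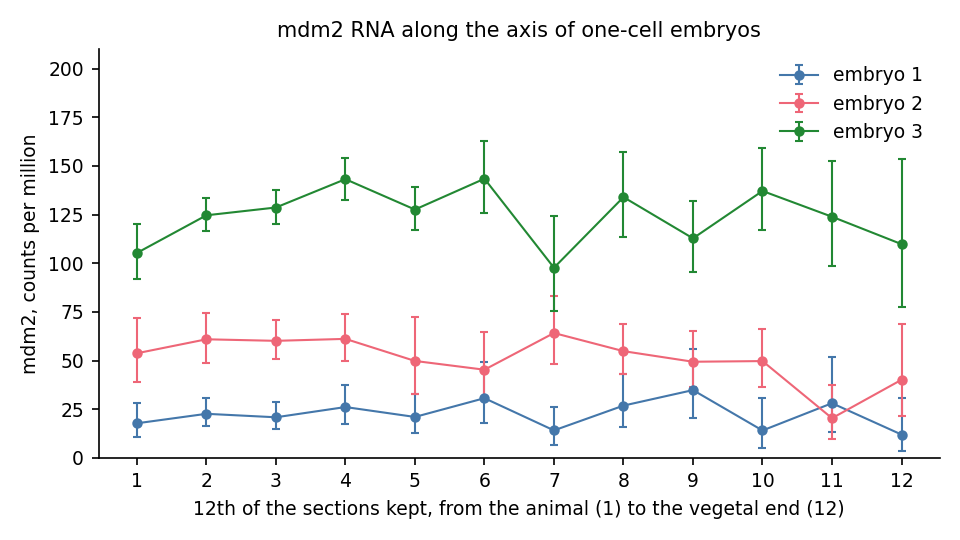
Expected counts of mdm2 per 1000000 (CPM, y axis) in 12 bins of the sections kept, from the animal (1) to the vegetal end (12), for each of 3 embryos; bars are 95% Poisson intervals of the counts. Embryo 3 lies above the others in every bin and embryo 2 above embryo 1 in all bins but 1, at 22.2, 54.7 and 128 over all sections.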

How the data were processed

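The 6 genes and all gene lists were chosen with earlier results of these data known. For tomo-seq, the authors mapped reads to GRCz10 and deposited expected counts per gene and section, that is, UMI counts corrected for molecules sharing a UMI; the table of embryo 2 holds the same kind of value ("other" as to its layout). For scSLAM-seq, the authors mapped to GRCz11 and deposited labeled and unlabeled counts per gene and barcode. Sections with at least 10% of the median total were kept (68, 70 and 74 of 96, with 1.01e+07 to 3.17e+07 counts), spike-ins were left out, and counts were summed over 3 equal parts (animal, middle, vegetal) and rounded; the low-numbered sections were taken as animal, since dazl lay at the other end, and genes needed 5 counts in 1 section of every embryo. Regions were compared in edgeR 4.0.16 (glmQLFit, glmQLFTest, region totals as library sizes, embryo as block, Benjamini-Hochberg at 0.05), since both regions come from the same embryo. Their deviations from the group means correlated at 0.935, 0.889 and 0.957. Log2 values are fold changes. The test was also run on simulated counts without embryo differences and with changes drawn evenly in both directions. That run does not check the use of region totals in these data. Labeled counts were reduced to 600 per cell by the exact hypergeometric probability. Clustering used scanpy 1.11.5 and leidenalg 0.10.2 (2000 genes, 30 components, 20 neighbours, resolution 1). A cluster was named when at least 3 markers were raised by 0.5 (log2) and 1 was among its 10 leading genes, unless its median count was below 0.333 of that of all cells; the limit of 0.5 was lowered from 1 after the names were seen. Named genes were the 6, the 10 list genes and the 10 other genes with the highest ratios. Further list genes were named after their values were seen. The values of 1 list gene are not reported here. Doublets were kept. Alternatives were DESeq2 1.42.0, TMM, other filters, depths and clusterings.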

Additional observations from a re-analysis of the deposited data

How the results depend on the processing

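The median labeled share of the 6 genes stayed within its counting error under all 4 alternatives tried. The median ratio of joint detection, 14.9, was 11.5 at 1000 counts per cell, 11.2 without thinning and 13.8 with labeled and unlabeled counts together. Within classes it was 12.8 in axial mesoderm-like, 19.5 in endoderm-like, 1.26 in enveloping layer-like, 1.97 in neuroectoderm-like, 3.01 in non-axial mesoderm-like and 3.59 in ventral margin mesoderm-like cells. It had no useful value in PGC-like cells. Of alternatives added after seeing the data, it was 16.8 without rps27l and 10.3 without the unnamed cluster of 504 cells. The share of named cells with at least 2 genes, 1.73%, was 2.36% at 50 genes per barcode, 0.895% at 300 and 2.93% at 1000 counts per cell, 4.75% without thinning and, in an added count without rps27l, 0.403%. With markers raised by at least 1, as an added alternative, it was 2.08%. Genes called between regions, 2619, were 1535 with TMM and 1071 with DESeq2. Without the replicate block, edgeR called 0 genes, with 147 at an unadjusted p under 0.05. Leaving out one embryo gave 1538 to 2149 genes, the lowest without embryo 3. mdm2 was reversed with TMM (0.10) and DESeq2 (0.13) and was called under no setting, with adjusted p from 0.261 to 1.00 (edgeR and DESeq2). The median level of mdm2 was 38.5 to 91.4 CPM when one embryo was left out. The causes of these shifts were not tested. With 1 library, few counts per gene and no way to assign cells to embryos, no difference between classes was tested.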
